A study of Mus musculus with 4 samples.

Results

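Lbh, Fhl2 and Hopx encode proteins that act with transcription factors in heart muscle without being classical DNA-binding activators themselves. They were followed in counts of RNA from mouse hearts that the series text describes as pulled down with an ac4C antibody. The regions of the deposited table whose overlapped gene was Lbh, Fhl2 or Hopx were taken by name. Each gene had a single region, so 3 of 558 distinct regions and 3 of 456 named genes are described, and 0 of the 3 regions overlapped another named gene. The genes were chosen by their knockout and control counts in these same libraries. Those counts are therefore given as a description, with no p-value.

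LBH (limb bud and heart) is a small acidic nuclear protein of the developing limb and heart that acts as a transcription cofactor and lies downstream of WNT signalling in other cell types. FHL2 is a protein made of LIM zinc-finger domains. It binds serum response factor, androgen receptor and beta-catenin in the nucleus, and in the sarcomere it tethers metabolic enzymes to titin. HOPX is an unusually short homeodomain protein that does not bind DNA. It restrains serum response factor by recruiting histone deacetylase. Serum response factor switches on contractile genes through a DNA element called the CArG box, so FHL2 and HOPX meet at the same factor.

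The libraries came from whole hearts of C57BL/6 mice, 2 from control and 2 from NAT10 knockout animals, and every library carried the treatment label HFD+STZ+Exercise. NAT10 is the acetyltransferase that makes N4-acetylcytidine (ac4C), a modified base of RNA. The sources used here do not give the knockout allele, the cells in which it acts, the age of the mice or the number of hearts per library. Nat10 itself had 0 lines in the deposited table, so its loss could not be checked in these counts. Counts in the table summed to between 674687 and 920818 per library, the highest being knockout 1. The sample labels themselves name total RNA and describe no capture step. With no uncaptured library used here, RNA abundance and ac4C level cannot be told apart in the values of these genes. In whole heart tissue, fewer cells of a type and less RNA per cell cannot be told apart either. Of 15 defining genes of heart muscle, 10 had a region in the table, among them Myh6, Actc1, Ryr2 and Ttn.

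In the GRCm38 annotation (GENCODE M21), Lbh (ENSMUSG00000024063) lies on chromosome 17 from 72918305 to 72941947 on the plus strand, and its longest coding transcript has 3 exons. Fhl2 (ENSMUSG00000008136) lies on chromosome 1 from 43123074 to 43196984 on the minus strand, with 6 exons in its longest coding transcript. Hopx (ENSMUSG00000059325) lies on chromosome 5 from 77086988 to 77115121 on the minus strand, with 3 exons. The table names a second, listed gene for each region, with coordinates on an unstated build that differ from GRCm38. For Lbh this was Lbh itself. For Fhl2 it was AI597479, a neighbour on the opposite strand whose end lies 7126 bases from that of Fhl2 in GRCm38. For Hopx it was Hopxos, an antisense gene that shares 412 of its 1661 exonic bases with Hopx. The strand entry was plus for all 3 regions, the strand of each listed gene, whereas Fhl2 and Hopx lie on the minus strand. Whether the entry describes the region or the listed gene is not given. Strand handling of the counts is not given either. Reads of Hopx and Hopxos, and sense and antisense reads at Fhl2, therefore cannot be told apart. Where in each gene a region lies was not used here.

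The promoters are shown because both starts of Fhl2 and 1 of the 2 starts of Hopx hold the element of the factor that both proteins bind, and the 1 start of Lbh does not. The windows are from RefSeq on GRCm38.p6 and run from 250 bases before to 50 bases after a transcription start, 5′ to 3′ on the gene's own strand. All 3 genes matched, with 5 starts in all. Capitals mark the CArG box, a MEF2 site and the TATA box sequence TATAAA.
Lbh, chr17:72918055-72918354, plus strand: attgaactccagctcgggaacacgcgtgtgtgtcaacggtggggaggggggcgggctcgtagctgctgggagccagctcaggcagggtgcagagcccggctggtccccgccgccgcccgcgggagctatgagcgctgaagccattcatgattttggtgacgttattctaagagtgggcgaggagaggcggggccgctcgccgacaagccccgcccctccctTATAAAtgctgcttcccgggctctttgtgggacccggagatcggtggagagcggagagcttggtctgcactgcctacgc
Fhl2 start 1, chr1:43196712-43197011, minus strand: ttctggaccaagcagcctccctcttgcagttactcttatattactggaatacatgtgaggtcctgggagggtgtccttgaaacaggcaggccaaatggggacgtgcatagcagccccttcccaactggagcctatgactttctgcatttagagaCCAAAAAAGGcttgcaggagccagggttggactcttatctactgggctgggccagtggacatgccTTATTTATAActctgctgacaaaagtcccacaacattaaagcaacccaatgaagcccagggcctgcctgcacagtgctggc
Fhl2 start 2, chr1:43163912-43164211, minus strand: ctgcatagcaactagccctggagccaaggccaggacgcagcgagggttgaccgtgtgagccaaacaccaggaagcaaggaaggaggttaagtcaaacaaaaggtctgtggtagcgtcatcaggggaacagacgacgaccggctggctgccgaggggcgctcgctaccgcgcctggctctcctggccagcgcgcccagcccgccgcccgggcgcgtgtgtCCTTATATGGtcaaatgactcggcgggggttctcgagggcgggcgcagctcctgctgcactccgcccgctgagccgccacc
Hopx start 1, chr5:77115074-77115373, minus strand: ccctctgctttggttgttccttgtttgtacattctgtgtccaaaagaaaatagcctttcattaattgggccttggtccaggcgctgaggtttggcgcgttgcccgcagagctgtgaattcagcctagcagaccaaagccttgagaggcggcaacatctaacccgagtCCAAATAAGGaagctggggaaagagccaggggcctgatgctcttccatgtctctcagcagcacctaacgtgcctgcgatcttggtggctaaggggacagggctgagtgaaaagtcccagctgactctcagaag

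A CArG box (a pair of C, 6 bases of A or T, a pair of G) stood in 3 of the 5 windows. Fhl2 had CCAAAAAAGG at -96 to -87 of its upstream start and CCTTATATGG at -31 to -22 of its downstream start. Hopx had CCAAATAAGG at -83 to -74 of its upstream start. Of 32851 promoter windows of the same length, 535 (1.63%) held a CArG box on either strand. The Lbh window held 0 CArG boxes and 1 TATAAA, at -29 to -24, a sequence found in 13.6% of windows. The upstream start of Fhl2 also held a MEF2 site (3.19% of windows) at -31 to -22, which overlaps a TATAAA on the other strand, and 1 match to the GATA sequence AGATAA (11.2%) at -62 to -57. The downstream start of Hopx, not printed, held 1 match, to the NKX2-5 sequence TNAAGTG (11.5% of windows), at 35 to 41. The TEAD sequence CATTCC (14.7%) and the T-box sequence AGGTGT (13.7%) had 0 matches in the 5 windows. Both strands were searched for each of the 7 motifs. A match describes letters and not a bound site, and which start these hearts used was not measured.

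**Figure D1:**
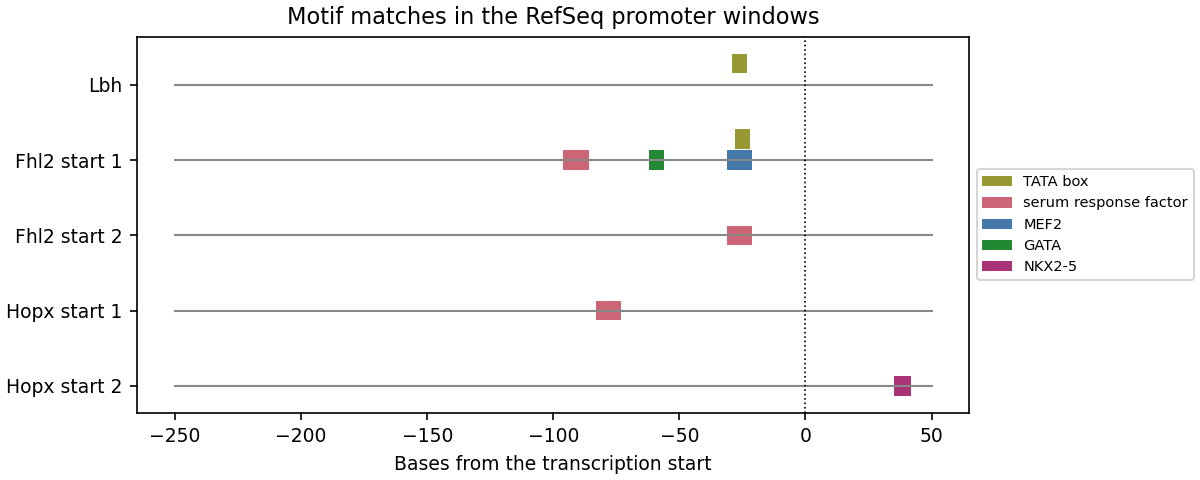
Matches to the searched motifs in the 5 promoter windows of Lbh, Fhl2 and Hopx, by distance in bases from the transcription start (dotted line). Serum response factor boxes (CArG) stand at both Fhl2 starts and at the upstream Hopx start, between -96 and -22, and TATAAA matches are drawn above the line.

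The RNAs were also compared for cytidines, the base that NAT10 acetylates. In human cells, ac4C sites have been reported in stretches built of triplets that start with C (CNN repeats). Over the longest coding transcript, C made up 25.7% of Lbh (3069 bases), 26.4% of Fhl2 (1563 bases) and 23.0% of Hopx (1261 bases), against a median of 25.6% over 300 coding genes of the table. The longest run of consecutive CNN triplets was 6 in Fhl2 and 7 in Hopx, with a median of 7 over the 300 genes. Lbh stood apart, with a run of 21 triplets. It is a repeat of mostly CCT at transcript bases 2775 to 2837, well after the last coding base at 563, and 99.3% of the 300 genes had a longest run of that length or shorter. Longer transcripts have more room for such runs, and whether the counted Lbh region covers the repeat was not tested.

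The comparison of knockout with control hearts asks how captured RNA of these genes differs when NAT10 is lost under the same diet, drug and exercise labels. Lbh counted 238 and 286 in the control libraries and 650 and 366 in the knockout libraries. After TMM scaling (a factor per library that evens out the bulk of regions, then CPM over the counts in the table), these were 384 and 416 in control against 596 and 574 in knockout. Both knockout libraries lay above both controls, and the lowest knockout value was 1.38 times the highest control value. Replicates of Lbh were close, within 1.08-fold in control and 1.04-fold in knockout. The group means were 400.4 ± 22.6 and 585 ± 15.5 normalised counts (SD, n = 2 each), a 1.46-fold difference. The fitted log2 difference, knockout minus control, was 0.55 ± 0.13 (SE).

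Fhl2 counted 229 and 313 in control and 544 and 383 in knockout. Its normalised counts were 370 and 456 in control against 499 and 600.5 in knockout. The groups did not overlap, but the lowest knockout value exceeded the highest control value by a factor of only 1.09, less than the 1.23-fold and 1.20-fold spread inside the groups. The means were 413 ± 60.7 and 549.6 ± 72.0 normalised counts (SD, n = 2 each), a 1.33-fold difference, with a log2 difference of 0.40 ± 0.14 (SE).

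Hopx had the fewest reads, 94 and 120 in control and 220 and 152 in knockout. Its normalised counts were 152 and 175 in control against 202 and 238 in knockout. Here too the knockout libraries lay above the controls without overlap, by a factor of 1.15 between the nearest values, against spreads of 1.15-fold and 1.18-fold inside the groups. The means were 163 ± 16.2 and 220.0 ± 25.9 normalised counts (SD, n = 2 each), a 1.35-fold difference, with a log2 difference of 0.42 ± 0.19 (SE).

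**Figure D2:**
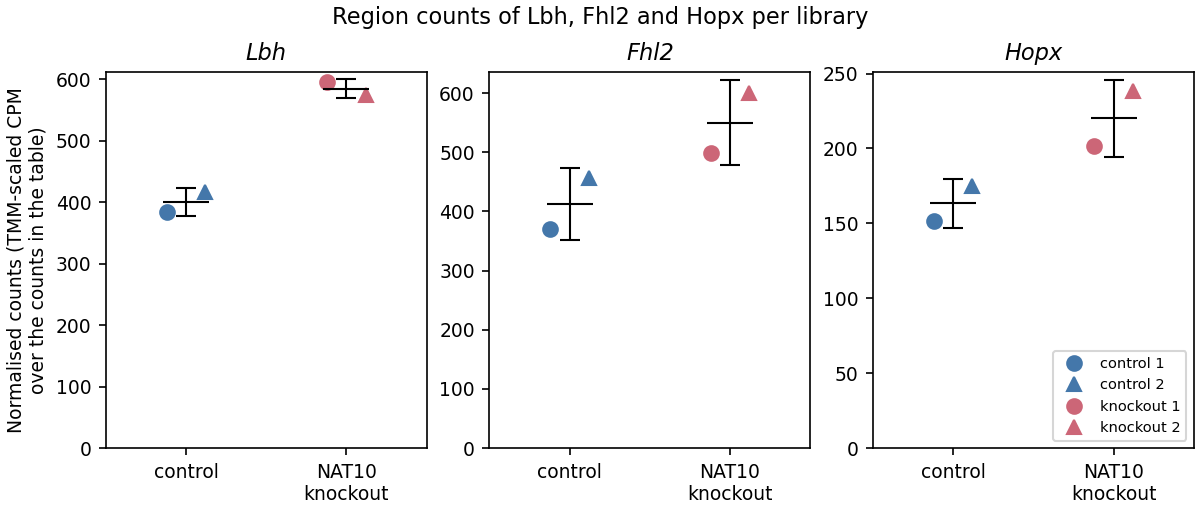
Normalised counts of the Lbh, Fhl2 and Hopx regions in each library (symbols), with group means and SD (bars, n = 2). Knockout libraries lie above controls for each gene, with the widest gap for Lbh (lowest knockout 574, highest control 416).

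All 3 regions had both knockout libraries above both controls, as did 25.3% of the 558 regions in the table. In edgeR's test across regions 3.94% of the 558 passed, 2.33% higher and 1.61% lower in knockout. No p-value of that test is given for the 3 genes, but the SE of each log2 difference was derived from its test statistic. Since the genes were chosen with these counts known, nothing is read from these shares. The log2 difference of Lbh was reached or exceeded by 64 of 558 regions (11.5%), that of Hopx by 104 (18.6%) and that of Fhl2 by 109 (19.5%). The median over all regions was 0.00940, with quartiles at -0.21 and 0.29. The direction was higher in knockout for the 3 genes in the 15 other settings run. Log2 differences there were 0.49 to 0.75 for Lbh, 0.26 to 0.58 for Fhl2 and 0.30 to 0.60 for Hopx. These settings refit the counts by which the genes were chosen, so nothing is read from the shared sign. The setting without a filter repeats the reported fit, because the filter removed 0 regions. Fhl2 depended most on single libraries: it stood at 0.26 without control replicate 1, 0.27 without knockout replicate 2, 0.56 without control replicate 2 and 0.54 without knockout replicate 1. Hopx moved the same way, from 0.30 without knockout replicate 2 to 0.54 without knockout replicate 1, whereas Lbh stayed between 0.49 and 0.60 when any 1 library was left out.

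Scaling of the libraries sets part of these sizes. With totals alone the median of all regions moved to 0.15, and with scaling to the 18S ribosomal RNA region to 0.22. Relative to that median, Lbh stood 0.53 higher in both settings, Fhl2 0.37 and 0.36 higher, and Hopx 0.39 higher in both. Over all settings the distance from the median ran from 0.51 to 0.56 for Lbh, from 0.23 to 0.54 for Fhl2 and from 0.26 to 0.55 for Hopx.

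**Figure D3:**
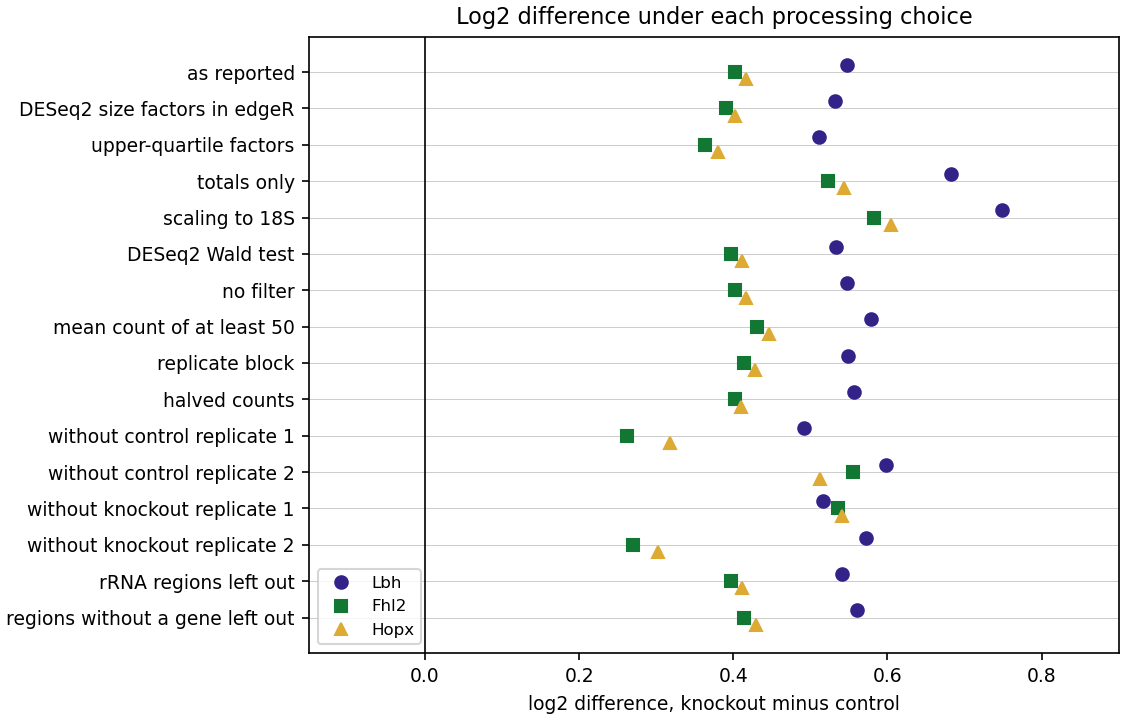
Log2 difference (knockout minus control) of Lbh, Fhl2 and Hopx as reported and in 15 other settings, 1 setting a line. Every point lies above 0, Lbh is highest except without knockout replicate 1, and Fhl2 falls to 0.26 without control replicate 1.

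Ratios between the genes inside a library need no scaling. Hopx over Fhl2 was 0.410 and 0.383 in control and 0.404 and 0.397 in knockout. The pair had nearly the same proportion in the 4 libraries, all inside one another's 95% Wilson intervals. Both genes were chosen with these same counts known, so nothing is read from the steady ratio. The widest interval ran from 0.323 to 0.522 (counting error only). All such intervals treat reads as independent, but most counts below 200 were even, so they may be too narrow. Lbh over Fhl2 was 1.04 and 0.914 in control and 1.19 and 0.956 in knockout. The knockout 1 ratio (95% interval 1.07 to 1.34) was the highest and the knockout 2 ratio lay between the controls, so the ratio did not separate the groups. Hopx over Lbh was 0.395 and 0.420 in control and 0.338 and 0.415 in knockout, again with overlapping groups. Levels of different genes cannot be ranked from these ratios, because region lengths were not used here.

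**Figure D4:**
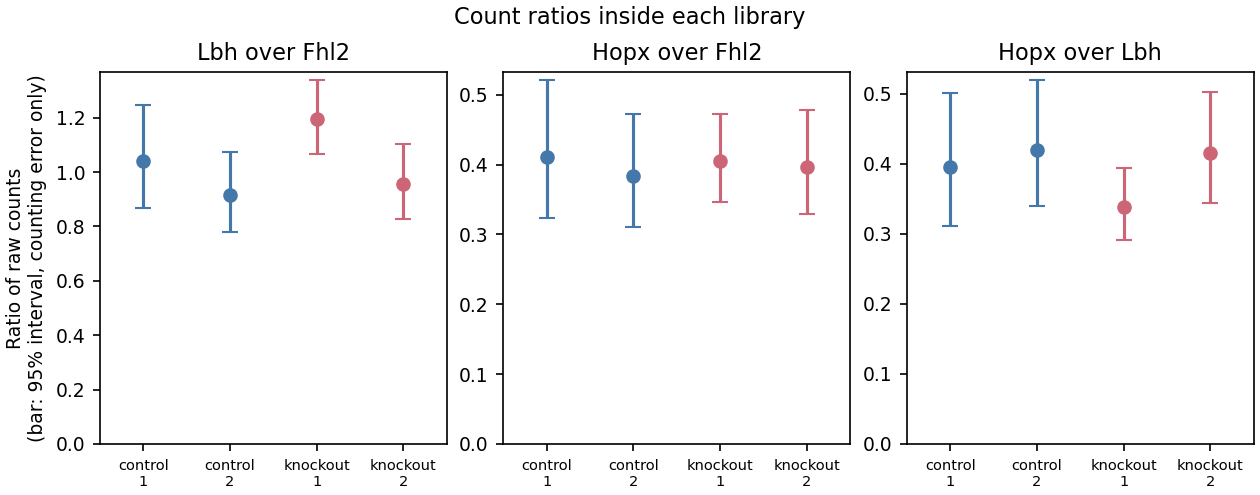
Ratios of raw counts between Lbh, Fhl2 and Hopx inside each library, with 95% Wilson intervals that cover counting error only and treat reads as independent. Hopx over Fhl2 lies between 0.383 and 0.410 in the 4 libraries, while Lbh over Fhl2 ranges from 0.914 to 1.19 with knockout 1 highest.

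The counts can also be given on the base of heart muscle RNA in the same library. Per 1000 counts of the Myh6 regions, which encodes the chief cardiac myosin heavy chain in adult mice, Lbh had 8.71 and 9.44 counts in control and 14.2 and 12.8 in knockout. Fhl2 had 8.38 and 10.3 in control and 11.8 and 13.4 in knockout, and Hopx 3.44 and 3.96 against 4.79 and 5.33. Myh6 itself differed little between the groups (log2 difference 0.00677 ± 0.19), so this base restates the normalised counts on another scale and adds no separate evidence. Against the regions of all 10 measured heart muscle genes, Lbh had 4.68 and 5.05 counts per 1000 in control and 7.40 and 6.80 in knockout. On that base Fhl2 had 4.50 and 5.52 against 6.19 and 7.12, and Hopx 1.85 and 2.12 against 2.50 and 2.83.

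In the authors' deposited table the log2 fold change, control over knockout, was -2.05 for Lbh, -1.21 for Fhl2 and -0.95 for Hopx. The same ratio from the raw count means was -0.96 for Lbh, -0.77 for Fhl2 and -0.80 for Hopx. For each of the 3 genes the value in the authors' deposited table is larger in size than the raw ratio and than the fitted log2 difference, most so for Lbh. The authors' deposited table gives 76.9% of the 558 regions as higher in knockout, so nothing is read from the shared sign, and 0 regions have a q-value below 0.05 there. No source used here says how the authors' value was made.

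The likeness of each gene to other regions was measured as the root mean square difference in log2 normalised counts, each region centred on its own mean over the 4 libraries. Candidates were the other 339 regions with a gene and a mean count of at least 50, the other members included. For Fhl2 the nearest of the 339 was Hopx, and for Hopx it was Fhl2, at 0.0369. Next for both came Got2 and Got1, the mitochondrial and cytosolic aspartate aminotransferases, and a region of Ryr2, the calcium release channel of the sarcoplasmic reticulum. These lay at 0.0545, 0.0726 and 0.0771 from Fhl2, and the Ryr2 region lay at 0.0409 from Hopx. The medians over candidates other than the 3 genes were 0.296 for Fhl2 and 0.286 for Hopx. Lbh had other neighbours: Myl2 at 0.0533, Tpm1 at 0.0648 and a region of Atp2a2 at 0.0682, against a median of 0.315. Myl2 is a ventricular myosin light chain, Tpm1 a tropomyosin of the thin filament and Atp2a2 the calcium pump of the sarcoplasmic reticulum. A single region need not stand for its gene. The Ryr2 region stood at 0.42, but Ryr2 summed over 2 regions at 0.09 ± 0.14 (SE). For Atp2a2 the values were 0.45 and, over 7 regions, -0.00874 ± 0.17. The table lists Gm45760 for the Got2 region, Gm47494 for Ryr2, Gm57052 for Tpm1 and Gm15846 for Atp2a2. Hopx ranked 19 and Fhl2 26 for likeness to Lbh. With 4 libraries these orders describe the table and were not tested. The 3 genes were chosen with these same counts known, so nothing is read from the likeness between them.

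Genes that work with these cofactors were taken from lists and counted by edgeR's quasi-likelihood test on counts summed per gene, with Benjamini-Hochberg adjusted p below 0.05 over 390 genes. In that test 4.87% of genes passed, 2.82% higher and 2.05% lower in knockout, and the median log2 difference of all genes was 0.05. Of 58 other cardiac transcription factors and cofactors, 3 were measured and 0 passed (median 0.08). Smyd1, a muscle histone methyltransferase that cooperates with HDACs, had 83.6 and 132 normalised counts in control and 156 and 146 in knockout. The knockout libraries lay above both controls, and the log2 difference was 0.48 ± 0.22 (SE, edgeR adjusted p = 0.199). Nkx2-5, the homeodomain factor of heart formation, stood at 0.08 ± 0.59 and Nfix, a nuclear factor I member, at -0.06 ± 0.25, with overlapping libraries in both cases. The value of Smyd1 rested on the controls: it stood at 0.84 without control replicate 2, where it passed (edgeR adjusted p = 0.0379), and at 0.20 without control replicate 1 (edgeR adjusted p = 0.854).

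FHL2 belongs to the LIM domain family, of which 4 of 34 other muscle members were measured. Their median was 0.40 and 0 passed. All 4 lay above 0, as did 56.2% of the 390 genes. Crip2, a small LIM protein, went from 336 ± 49.6 to 415 ± 6.86 normalised counts (SD, n = 2 each; log2 difference 0.30 ± 0.15, edgeR adjusted p = 0.205). Pdlim5, a PDZ and LIM protein of the Z-disc, stood at 0.50 ± 0.29, and Ldb3, the Z-disc protein also called ZASP or cypher, at 0.22 ± 0.23. Without control replicate 2 Crip2 stood at 0.14 and Ldb3 at 0.0778, and without control replicate 1 at 0.46 and 0.35. Of 29 reported binding partners of FHL2, 5 were measured, with a median of 0.01, and 0 passed. Titin (Ttn), to which FHL2 binds, stood at 0.01 ± 0.17 over 22 regions. The enzymes that FHL2 tethers there stood at -0.12 ± 0.13 for Ckm, muscle creatine kinase, whose region also overlaps A930016O22Rik, and at -0.07 ± 0.15 for Ak1, adenylate kinase.

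Of 37 muscle genes known as targets of serum response factor, 13 were measured, of which 3 rose, 1 fell and 9 did not pass, with a median of 0.00677. Over all 390 genes, 2.82% passed as higher and 2.05% as lower in knockout. The list was chosen with earlier results of these data known, so nothing is read from its counts. The ventricular light chain genes rose, Myl3 from 479 ± 4.31 to 779.5 ± 43.0 and Myl2 from 1095 ± 2.43 to 1618 ± 94.1 normalised counts (SD, n = 2 each). Their edgeR adjusted p were 1.92e-05 and 0.000737, at log2 differences of 0.70 and 0.56. Tpm1 rose by 0.68 ± 0.13 (edgeR adjusted p = 1.92e-05). Nppa, atrial natriuretic peptide, fell by 2.22 on the log2 scale (edgeR adjusted p = 3.41e-49) in a region it shares with Gm13054. The size of that p depended on the setting. With all 4 libraries, edgeR adjusted p ran from 5.99e-72 with upper-quartile factors to 1.44e-08 with scaling to 18S. Myh6 at 0.00677 ± 0.19, Atp2a2 at -0.00874 ± 0.17 and myoglobin (Mb) at -0.09 ± 0.16 did not pass. The calls of Myl3, Tpm1 and Myl2 were lost with totals alone, with scaling to 18S and without knockout replicate 2 (edgeR adjusted p 0.0687, 0.0560 and 0.0560 in the last), and that of Myl2 also without control replicate 1 (0.113).

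**Figure D5:**
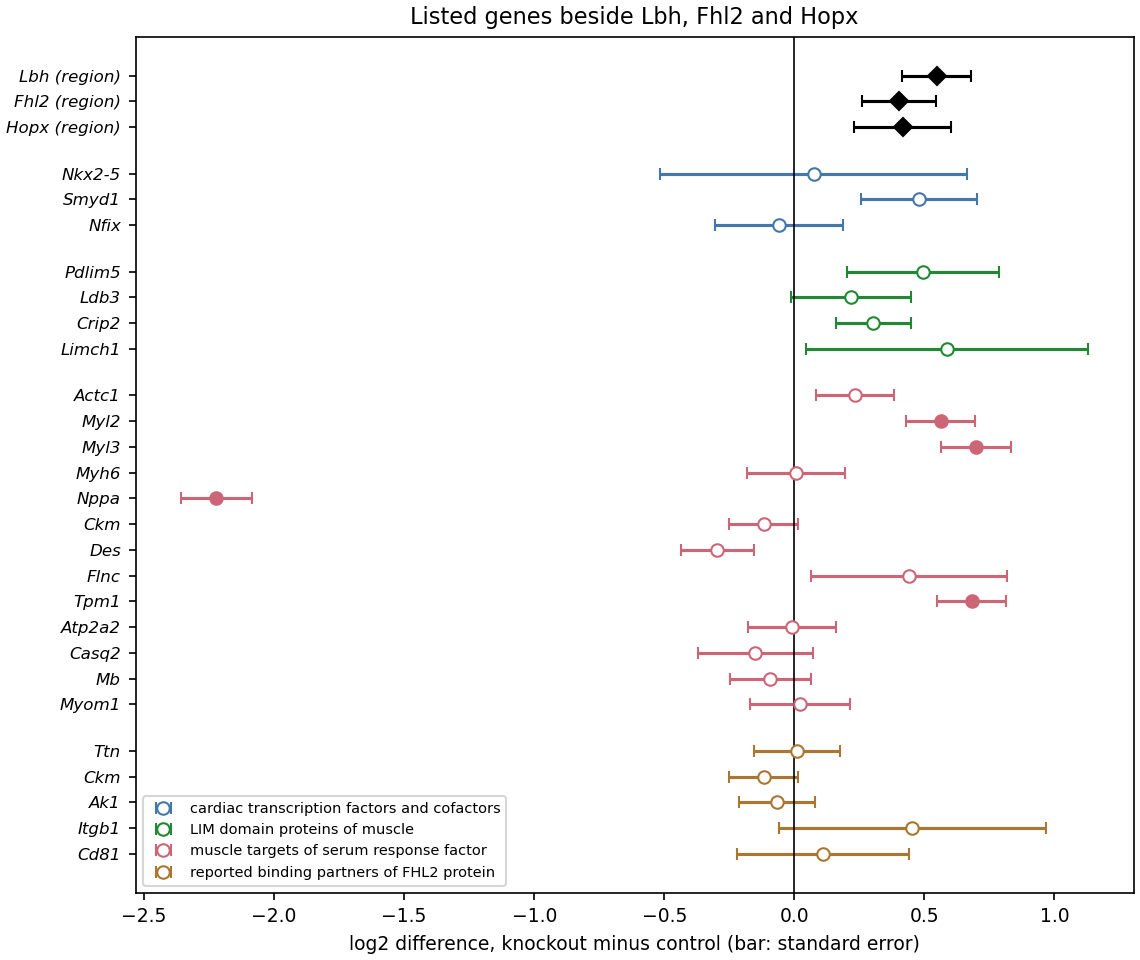
Log2 difference (knockout minus control) with its standard error for the Lbh, Fhl2 and Hopx regions (black diamonds, no p-value given) and for listed genes summed per gene (circles). Filled circles passed edgeR's test: Myl2, Myl3 and Tpm1 at 0.56 to 0.70 and Nppa at -2.22. The other circles are open.

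Markers that could place these RNAs in other cells were sparse. Hopx also marks alveolar cells of the lung, and 0 of 12 alveolar genes had a region in the table. The same held for 0 of 10 fibroblast, 0 of 11 endothelial and 0 of 10 macrophage genes. The table names only 456 genes, so a missing marker does not show that a cell type was absent. The lists are also short: Lyl1, a factor of blood and vessel cells, had a region but stands in none of them. Of 10 smooth muscle and pericyte genes, 2 were measured (Rgs5 and Abcc9), with a summed level of 83.6 to 152 normalised counts in control and 149 to 193 in knockout. Of 8 adipocyte genes, 1 was measured: Lpl, lipoprotein lipase, at 3182 to 3217 in control and 4084 to 4087 in knockout. Which cells of the heart gave the Lpl, Rgs5 and Abcc9 counts was not tested. The part of these genes' cells in the values of Lbh, Fhl2 and Hopx was not tested either. Hba-a2, the 1 of 6 blood genes measured, ranged from 32.2 to 44.5 in control and from 19.4 to 53.4 in knockout. Ckm, the 1 of 10 skeletal muscle genes, ranged from 667 to 777 and from 661 to 668. Ckm also stands in the heart muscle list, so its counts do not point to skeletal muscle. None of these 5 genes passed the test, the nearest being Abcc9, with 6.43 and 25.8 in control and 47.0 and 63.2 in knockout (edgeR adjusted p = 0.0522). In the ventricular list 3 of 7 measured genes of 16 rose, Myl2, Myl3 and Pln, with a median of 0.58. Pln, phospholamban, rose by 0.73 ± 0.15 (edgeR adjusted p = 5.11e-05) in a region shared with Cep85l and Gm47644, a call lost without control replicate 1 (0.138). In the atrial list 1 of 2 measured genes of 10 fell, Nppa, with a median of -1.80. The other, Stard10, in a region shared with Gm20476, had 67.5 and 48.8 normalised counts in control and 14.5 and 32.4 in knockout, and did not pass (log2 difference -1.38 ± 0.53, edgeR adjusted p = 0.0983). The summed level of the atrial genes was 2064 in each control library and 438 to 469.8 in knockout, almost all of it Nppa. The part of atrial and ventricular tissue in the values of Lbh, Fhl2 and Hopx was not tested. Of the 10 heart muscle genes 3 rose and 1 fell, the same 4 as named in these lists. Myl2, Myl3 and Nppa are also counted among the targets of serum response factor, so the lists are not separate results. The marker lists too were chosen with earlier results of these data known, so nothing is read from their counts. Over all 390 genes, 2.82% passed as higher and 2.05% as lower in knockout.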

How the data were processed

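RNA of 4 heart libraries was sequenced after RiboZero depletion and library preparation with an NEB kit, per the labels' protocols; the ac4C antibody is named in the series design text alone. FastQC, Salmon and mm10 appear in the submitters' processing notes without a role. No source used here gives the region caller, the counter or the strand setting. The deposited table holds raw counts per region, per the file headers, with the authors' log2 fold change, p-value and q-value. Its 652 lines hold 558 distinct regions, because 94 lines repeat a region for another gene. Most counts below 200 were even (77.9% to 83.3% per library), so reads cannot be taken as independent molecules.

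Regions, and counts summed per gene over distinct regions with genes of identical regions merged, were fitted with edgeR 4.0.16 in R 4.3.3 (filterByExpr, TMM, robust quasi-likelihood fit, Benjamini-Hochberg adjustment). The filter removed 0 regions and 0 genes. For regions the TMM factors of the control libraries were 0.918 and 1.00, those of the knockout libraries 1.18 and 0.919. Since no label says that replicates are different animals, a p-value covers the spread of these samples alone, which may be technical. Replicates differed beyond sampling noise (chi-square per degree of freedom 4.51 in control, 16.3 in knockout). The region test was also run on simulated counts that shared a common dispersion and had no excess of even counts. The real counts differ from that setting, so nothing is read from the simulation.

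The genes, lists and rules were chosen with earlier results of these data known. From each pathway list up to 4 genes past the test and the 3 others of highest level were named, and from marker lists the genes past the test. Alternatives were other scalings, DESeq2 1.42.0, other filters, halved counts, a replicate block and leaving out libraries or regions. Wilson intervals are from scipy 1.17.1.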

Additional observations from a re-analysis of the deposited data

How the results depend on the processing

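Of 558 regions 22 passed (13 higher, 9 lower in knockout), and of 390 genes 19 (11 higher, 8 lower). The regions numbered 8 with totals alone, 6 with scaling to 18S and 7 with the DESeq2 Wald test, and 13 (6 higher, 7 lower, without control replicate 2) to 37 (13 higher, 24 lower, without knockout replicate 2) with 1 library left out. Genes numbered 5, 4 and 10 in those settings, 41 with upper-quartile factors (9 higher, 32 lower) and 10 (2 higher, 8 lower, without knockout replicate 2) to 41 (21 higher, 20 lower, without control replicate 2) with 1 library left out. The share of calls that were higher also moved by over 10 points in some settings: 7 of 10 genes with DESeq2, 9 of 20 with its size factors and 2 of 5 with totals alone. The log2 difference of Lbh was 0.75 with scaling to 18S and 0.68 with totals alone, and that of Hopx 0.60 with 18S, beyond 1 SD of their replicates. Every other value of the 3 genes stayed within it. With the replicate number as a block, 1 region and 16 genes passed. The numbers are not stated to pair libraries, and deviations of libraries with the same number correlated at -0.16. With crossed pairing, chosen after seeing the data, 42 regions and 23 genes passed. Listed genes near 0 changed sign. With totals alone Nfix was 0.0728, Atp2a2 0.0966, Mb 0.00732 and Ak1 0.0485. Scaling to 18S gave 0.147, 0.163, 0.0722 and 0.117 for these, and 0.0665 for Ckm. Upper-quartile factors gave Nkx2-5 -0.0267, Myh6 -0.107 and Ttn -0.102, the DESeq2 Wald test -0.00422, -0.0442 and -0.0398, and DESeq2 size factors -0.0442 for Myh6 and -0.0398 for Ttn. Myh6 was -0.00384 with a mean count of at least 50 and -0.0111 without the rRNA regions, where Ttn was -0.00665. With 1 library left out, Nfix ran from -0.368 to 0.139, Nkx2-5 from -0.442 to 0.483, Myh6 from -0.0719 to 0.0671, Atp2a2 from -0.0533 to 0.0217, Ttn from -0.0153 to 0.0226 and Ak1 from -0.161 to 0.0112. The cause of these changes was not tested.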

Other observations

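Other regulators of transcription in the table, picked after its gene names were seen and given without a p-value, lay on both sides of 0. Mbd2, a methyl-CpG binding protein, had 96.5 and 54.5 normalised counts in control and 27.1 and 43.7 in knockout. Its knockout libraries lay below both controls, with a log2 difference of -1.12 ± 0.40 (SE). Klf2, a shear-responsive Krüppel-like factor, had 70.7 and 71.7 in control against 57.9 and 38.9 in knockout. Nfe2l1, a regulator of proteasome genes, had 138 and 113 against 97.7 and 102, and Smchd1, a chromatin protein of the silent X chromosome, in a region shared with Gm4707, had 219 and 207 against 174 and 178. Both knockout libraries lay below both controls for these 4 genes, as they did in 22.2% of all regions. Lyl1, a basic helix-loop-helix factor of blood and vessel cells, lay the other way, with 32.2 and 25.8 in control and 48.9 and 32.4 in knockout, as did 25.3% of all regions. The low counts of Lyl1 (18 to 54) leave a log2 difference of 0.52 ± 0.54 (SE).

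Jarid2, a partner of the polycomb complex that is required for heart development, had 7296 and 6587 in control and 4665 and 7302 in knockout, so the groups overlapped. Epas1, the hypoxia-inducible factor 2 alpha, had 114 and 122 against 147 and 120, and Tle5, a Groucho family corepressor, 424 and 448 against 411 and 603. Ybx1, a cold shock domain protein that binds DNA and RNA, had 240 and 222 against 270 and 235. For these 4 genes the groups overlapped. They also overlapped for the remaining regulators picked. These were Klf3 (log2 difference 0.33 ± 0.92, SE), Kmt2d (-0.10 ± 1.11), Tsc22d4 (0.22 ± 0.34), and Thra with Nr1d1, which share a region (-0.09 ± 0.34).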
